A study of Mus musculus with 4 samples.

Results

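The immediate early genes are a small set of genes switched on within minutes of a stimulus, without new protein synthesis. The 10 described here encode transcription factors of the AP-1, Egr and Klf groups and 1 further immediate early regulator. They are Fos, Fosb, Fosl1 and Fosl2 of the Fos family, Jun and Junb of the Jun family, the zinc finger factors Egr1, Klf4 and Klf6, and Ier2. Members were found by gene symbol in the deposited tables, and all 10 were present among the 55141 genes with TPM (reads divided by gene length and scaled to a fixed sum within a library). All 10 had a mean of at least 10 reads over the 4 libraries, the filter that 9540 genes passed.

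Fos and Jun proteins pair through leucine zippers to form AP-1, a dimer that binds short palindromic DNA sites. Growth factors, cytokines and mechanical or oxidative stress raise transcription of these genes through MAP kinases, serum response factor and its Elk partners, and their transcripts decay quickly. In cartilage, AP-1 is known for driving genes of matrix-degrading metalloproteinases in response to inflammatory signals, while Fosl2 is required for normal cartilage development.

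RNA came from cultured articular chondrocytes taken from femoral heads of C57BL/6 mice (C57BL6/J in the label of the mimic library) aged 3 weeks, with 1 library for each of 4 conditions. The conditions were wild type, Cart-miR-23clus KO (Col2a1-cre with floxed miR-23a and miR-23b clusters, also called the cluster knockout), miR-26a KO (miR-26a -/-) and miR-26a KO cells into which a miR-26a mimic had been transfected. Col2a1-cre acts in cells of the chondrocyte lineage, whereas the miR-26a allele is labelled as a knockout with no Cre driver. The labels call the first library wild type, and the study calls it both wild type and Control, a name its methods give to floxed mice lacking Cre, so whether floxed alleles were present is not certain. Nor is it stated for miR-26a KO cells whether a control oligonucleotide was transfected into them.

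Each library was made from the 3′ ends of mRNAs (QuantSeq), and 1336496 to 1505805 reads were counted on genes. With 1 library per condition there was no replicate check and no test, and a ratio compares 2 libraries rather than 2 conditions. Intervals are exact Clopper-Pearson intervals at 95% for ratios and exact Poisson intervals for levels. They cover counting error only, not differences between animals or cultures, and they treat each read as an independent molecule. Reads without molecular identifiers may be copies of 1 molecule, so the intervals may be too narrow. A gene with 0 reads could still hold up to 0.000199% to 0.000224% of the gene reads. All 8 loci of the deleted miRNAs (Mir23a, Mir27a, Mir24-2, Mir23b, Mir27b, Mir24-1, Mir26a-1 and Mir26a-2) had 0 reads in every library, so the deletions could not be checked here. All 10 chondrocyte markers were detected in each library, with a summed level of 14080 TPM in wild type and 10150 to 10670 TPM in the other 3. In bulk RNA, fewer cells of a type and less RNA per cell cannot be told apart.

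Mature miRNAs removed or added in these cells are shown because the comparisons rest on them; miR-23b-3p, also removed, is named only. Sequences are from RefSeq (GRCm38.p6), 5′ to 3′, with the seed, bases 2 to 8, in capitals. The miR-27a and miR-27b seeds are identical. Their genes lie on chromosome 8 (miR-23a, miR-27a and a copy of miR-24) and chromosome 13 (miR-27b and the other copy of miR-24), and those of miR-26a on chromosomes 9 and 10.
miR-23a-3p: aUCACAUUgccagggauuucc
miR-27a-3p: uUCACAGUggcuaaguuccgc
miR-27b-3p: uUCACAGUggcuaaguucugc
miR-24-3p: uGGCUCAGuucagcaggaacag
miR-26a-5p: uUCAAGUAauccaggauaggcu

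Annotated 3′ UTRs (GENCODE M21, GRCm38) of the 10 genes were searched for the 7 bases that pair with these seeds. Fosb held a match for miR-23 at chr7:19304159-19304181 and a match for miR-27 at chr7:19303914-19303936, both on the minus strand. Fosl2 held a match for miR-26a at chr5:32157234-32157256 and for miR-27 at chr5:32155652-32155674, on the plus strand. Klf6 held a match for miR-24 at chr13:5870153-5870175, on the plus strand. The 23 bases around each match are shown with the match in capitals.
Fosb, miR-23: gattccaaAATGTGAacccctat
Fosb, miR-27: cgctttatACTGTGAatgagtgg
Fosl2, miR-26a: tttgtggtTACTTGAttttgagg
Fosl2, miR-27: tgggctggACTGTGAgcagctct
Klf6, miR-24: ggtgacaaCTGAGCCtcaatcaa
The other 7 members, Fos, Junb and Ier2 among them, had no such match for any of the 4 seeds. Over 9094 genes with a 3′ UTR of at least 50 bases, 17.5% held a miR-23 match, 18.1% a miR-27 match, 19.7% a miR-24 match and 12.4% a miR-26a match. A match for miR-23, miR-27 or miR-24 was present in 42.1% of these genes and in 3 of the 10 members. A match is a stretch of letters and not a shown target.

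In the Fos family, the level of Fos was 12.7 TPM (28 reads) in wild type, 39.5 TPM (79 reads) in Cart-miR-23clus KO, 26.4 TPM (53 reads) in miR-26a KO and 21.0 TPM (45 reads) with the mimic. Fos encodes the classic inducible AP-1 subunit, and it lies on chromosome 12 from 85473890 to 85477273 (GRCm38). Wild type stood lowest and Cart-miR-23clus KO highest, and the intervals of these levels, 8.45 to 18.4 TPM and 31.3 to 49.2 TPM, did not overlap. The ratio of the cluster knockout to wild type was 3.11 (95% interval 2.00 to 4.97). For miR-26a KO the ratio to this wild-type library was 2.08 (1.29 to 3.41). With the mimic the ratio to miR-26a KO was 0.793, and its interval of 0.521 to 1.20 included 1.

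Fosb, which encodes a close relative of Fos, was covered by 7 reads in wild type, 29 in the cluster knockout, 5 in miR-26a KO and 7 with the mimic. Its levels were 1.77, 8.08, 1.39 and 1.82 TPM, so the cluster knockout stood alone above 3 libraries that counting error did not separate. The ratio of the cluster knockout to wild type was 4.56, the largest among the members, with a wide interval of 1.96 to 12.3. Against miR-26a KO it was 5.82 (2.23 to 19.2), and against the mimic library 4.45 (1.91 to 12.0). In miR-26a KO the ratio to wild type was 0.785 (0.196 to 2.87), an interval that covers ratios well below and well above 1. Fosb (chromosome 7, 19302696 to 19310051) was also the member with the fewest reads.

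Fosl2, or Fra-2, was by far the most abundant Fos family transcript in these cells. It had 74.5 TPM (509 reads) in wild type, 67.4 TPM (418 reads) in Cart-miR-23clus KO, 89.2 TPM (555 reads) in miR-26a KO and 93.9 TPM (625 reads) with the mimic. Unlike Fos, it was lowest in Cart-miR-23clus KO, where the ratio to wild type of 0.904 had an interval (0.793 to 1.03) that included 1. In miR-26a KO it was 1.20 times wild type (1.06 to 1.35), and Cart-miR-23clus KO held 0.755 times the level of miR-26a KO (0.663 to 0.859). For the mimic library, which was given the miRNA whose seed match in Fosl2 is shown above, the ratio over miR-26a KO was 1.05 (0.937 to 1.18). Fosl2 lies on chromosome 5 from 32135801 to 32157842.

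Fosl1, or Fra-1, had 4.11 TPM (8 reads) in wild type, 7.35 TPM (13 reads) in Cart-miR-23clus KO, 7.33 TPM (13 reads) in miR-26a KO and 8.96 TPM (17 reads) with the mimic. Wild type was lowest, but at this depth no difference was detectable, since the ratios of 1.79 in Cart-miR-23clus KO (0.687 to 4.98) and 1.79 in miR-26a KO (0.686 to 4.97) had intervals that included 1. The gene (chromosome 19, 5447547 to 5455946) shares 2767 bases with Ccdc85b on the other strand, which had 2 to 9 reads. The strand setting of the counting is not given in the sources used here, so reads of such pairs may not be told apart.

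The make-up of the Fos family stood apart most in the cluster knockout, while its sum was lowest in wild type. Summed over Fos, Fosb, Fosl1 and Fosl2 the level was 93.1 TPM in wild type, 122 TPM in the cluster knockout, 124 TPM in miR-26a KO and 126 TPM with the mimic. Fosl2 made up 80.0% of it in wild type, 55.1% in the cluster knockout, 71.7% in miR-26a KO and 74.7% with the mimic. The share of Fos was 13.7%, 32.3%, 21.3% and 16.7% in the same order. Counted as reads, Fosl2 took 92.2% of the family in wild type (exact 95% interval 89.7 to 94.3) and 77.6% in Cart-miR-23clus KO (73.8 to 81.0), and these intervals did not overlap. Those of miR-26a KO, at 88.7% (85.9 to 91.0), and of the mimic library, at 90.1% (87.6 to 92.2), overlapped that of wild type.

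**Figure D1:**
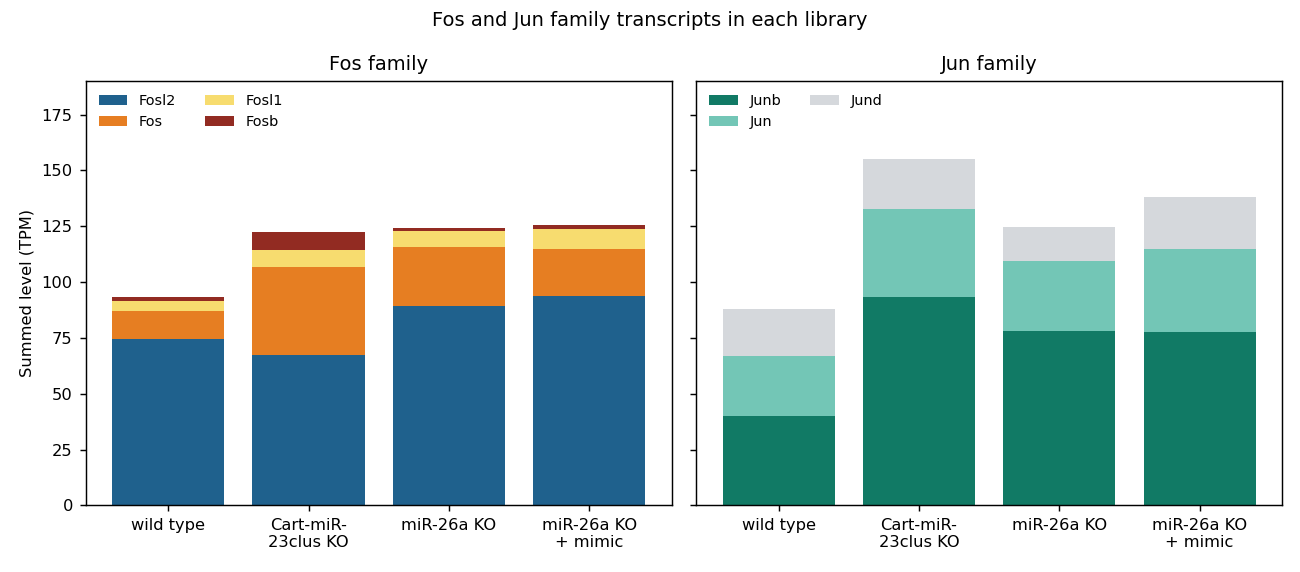
Summed TPM of the Fos family (left) and the Jun family (right) in each of the 4 libraries, stacked by gene from 0. Fosl2 fills 80.0% of the wild-type Fos family bar and 55.1% of the Cart-miR-23clus KO bar, and Junb fills 45.6% and 60.0% of the Jun family bars of the same libraries.

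Junb encodes the Jun protein that often restrains the activity of c-Jun. It had 40.2 TPM (76 reads) in wild type, 93.2 TPM (160 reads) in Cart-miR-23clus KO, 77.9 TPM (134 reads) in miR-26a KO and 77.6 TPM (143 reads) with the mimic. The 3 knockout libraries lay close together and well above wild type, whose interval of 31.7 to 50.3 TPM overlapped none of theirs. The ratio to wild type was 2.32 (1.75 to 3.09) in Cart-miR-23clus KO, 1.94 (1.45 to 2.60) in miR-26a KO and 1.93 (1.45 to 2.58) with the mimic. The mimic library had 0.997 times the level of miR-26a KO (0.782 to 1.27). Junb lies on chromosome 8 from 84974484 to 84978718, and its last 351 bases overlap Prdx2 on the other strand, which had 384 to 466 reads with 466 in wild type.

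Jun, which encodes c-Jun, the most common partner of Fos, varied less. Its level was 26.7 TPM (89 reads) in wild type, 39.3 TPM (119 reads) in Cart-miR-23clus KO, 31.6 TPM (96 reads) in miR-26a KO and 37.3 TPM (121 reads) with the mimic. Wild type was again lowest and Cart-miR-23clus KO highest. The interval left out 1 for Cart-miR-23clus KO against wild type, at 1.47 (1.11 to 1.96), and not for miR-26a KO, at 1.19 (0.879 to 1.60), nor for the mimic library against miR-26a KO, at 1.18 (0.893 to 1.56). Jun lies on chromosome 4 from 95049034 to 95052222, where 689 bases overlap Junos on the other strand, with 0 to 3 reads. With Jund added, the Jun family summed to 88.2, 155, 125 and 138 TPM in the 4 libraries in that order, and Junb made up 45.6%, 60.0%, 62.5% and 56.3% of it.

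**Figure D2:**
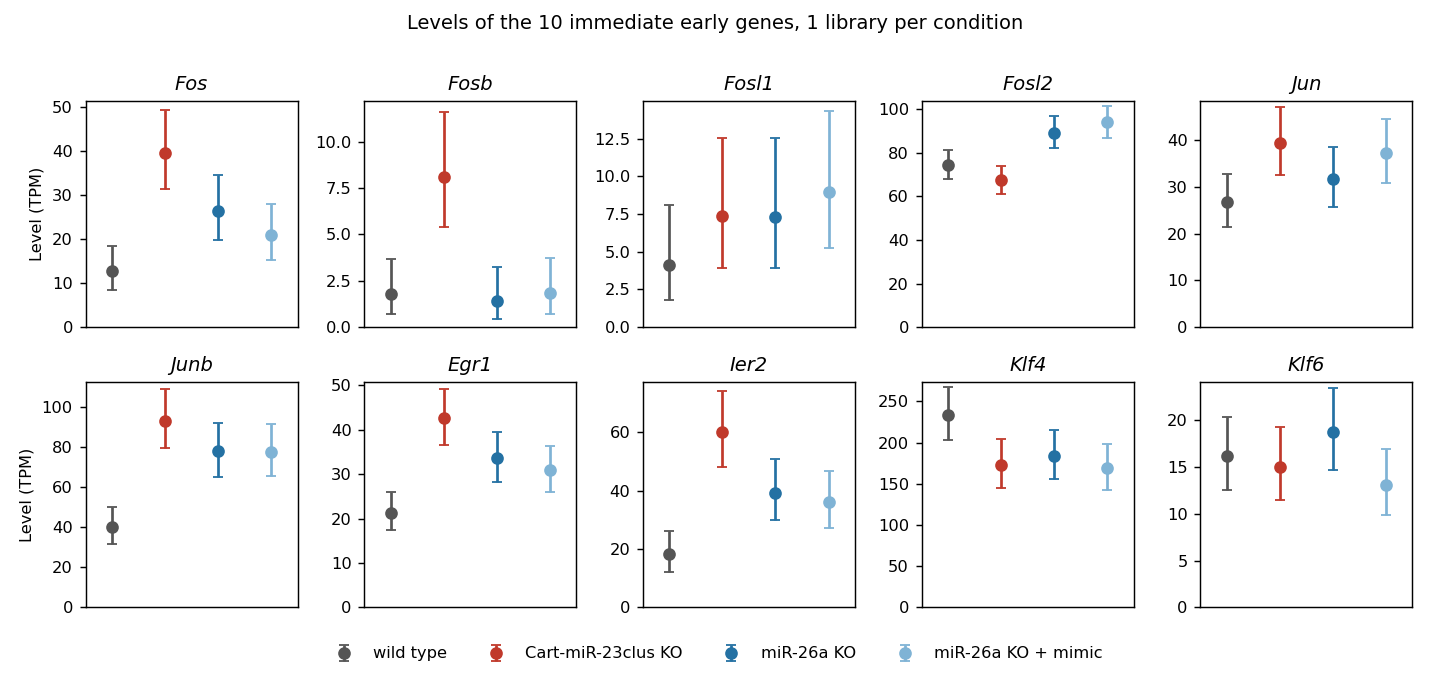
TPM of each of the 10 genes in the 4 libraries, each axis starting at 0, with points for single libraries and bars for exact 95% Poisson intervals on reads. Wild type is the lowest point for 6 genes (Fos, Fosl1, Jun, Junb, Egr1 and Ier2), and Cart-miR-23clus KO the highest for 6 (Fos, Fosb, Jun, Junb, Egr1 and Ier2).

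Ier2, an immediate early gene with no DNA-binding zipper of the AP-1 kind, followed Fos closely. It had 18.2 TPM (29 reads) in wild type, 60.2 TPM (87 reads) in Cart-miR-23clus KO, 39.3 TPM (57 reads) in miR-26a KO and 36.1 TPM (56 reads) with the mimic. The wild-type interval, 12.2 to 26.2 TPM, lay below the intervals of the other 3 libraries. The ratio to wild type was 3.30 (2.15 to 5.22) in Cart-miR-23clus KO and 2.16 (1.36 to 3.50) in miR-26a KO. With the mimic it was 0.918 times miR-26a KO (0.623 to 1.35). Ier2 lies on chromosome 8 from 84661331 to 84662852.

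Egr1, a zinc finger factor induced through serum response factor, had 21.3 TPM (100 reads) in wild type, 42.5 TPM (181 reads) in Cart-miR-23clus KO, 33.5 TPM (143 reads) in miR-26a KO and 30.9 TPM (141 reads) with the mimic. Its order of libraries was that of Fos and Ier2. The ratio to wild type was 1.99 (1.55 to 2.57) in Cart-miR-23clus KO, just short of 2 on the TPM scale and above it under the 3 other scalings tried, and 1.57 (1.21 to 2.05) in miR-26a KO. For the mimic library over miR-26a KO it was 0.921 (0.725 to 1.17). Egr1 lies on chromosome 18 from 34859823 to 34864984.

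The Klf genes did not share this order. Klf4, a zinc finger factor also known for its use in reprogramming cells to pluripotency, had 234 TPM (210 reads) in wild type, 173 TPM (141 reads) in Cart-miR-23clus KO, 184 TPM (150 reads) in miR-26a KO and 169 TPM (148 reads) with the mimic. Wild type was here the highest library, and the other 3 were not separated by counting error. The ratio to wild type was 0.739 (0.593 to 0.920) in Cart-miR-23clus KO and 0.785 (0.632 to 0.972) in miR-26a KO. Klf6 had 16.1, 15.0, 18.7 and 13.0 TPM (71, 60, 75 and 56 reads) in the same order of libraries. Its ratio to wild type was 0.930 (0.649 to 1.33) in Cart-miR-23clus KO and 1.16 (0.827 to 1.63) in miR-26a KO. Over miR-26a KO the mimic library had a Klf6 ratio of 0.698, and its interval ended at 1.00, just under 1 before rounding. Klf4 lies on chromosome 4 from 55527143 to 55532466 and Klf6 on chromosome 13 from 5861482 to 5870394.

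Counted together, 4 of the 10 genes (Fos, Fosb, Junb and Ier2) had a ratio above 2 in Cart-miR-23clus KO against wild type, where 4.64% of the 9540 genes did, and 0 had a ratio below 0.5, where 4.33% did. Fosb passed the filter of 10 reads only through its 29 reads in the cluster knockout, the library where it was high, so its place in this count is no support; without it the count was 3 of 9. The interval lay above 1 for 6 members (those 4, Jun and Egr1), against 11.7% of all genes, and below 1 for Klf4 alone, against 12.2%. Fosb is among the 6, and its place there is no support either. The median log2 ratio of the members was 0.92, and that of all genes -0.02. At a mean of at least 50 reads, which leaves out Fosb and Fosl1, the members' median was 0.78. In miR-26a KO, set against that wild-type library too, 2 members (Fos and Ier2) had a ratio above 2, where 4.06% of genes did, and 0 had a ratio below 0.5, where 3.27% did. The interval lay above 1 for 5 members (Fos, Fosl2, Junb, Egr1 and Ier2), against 11.1% of genes, and below 1 for Klf4 alone, against 8.42%. The median of the members was 0.46, with 0.03 over all genes. These comparisons share the wild-type library, so a low value in it enters both. The members were chosen with earlier results of these data known, so the counts and medians describe the set and are no support.

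**Figure D3:**
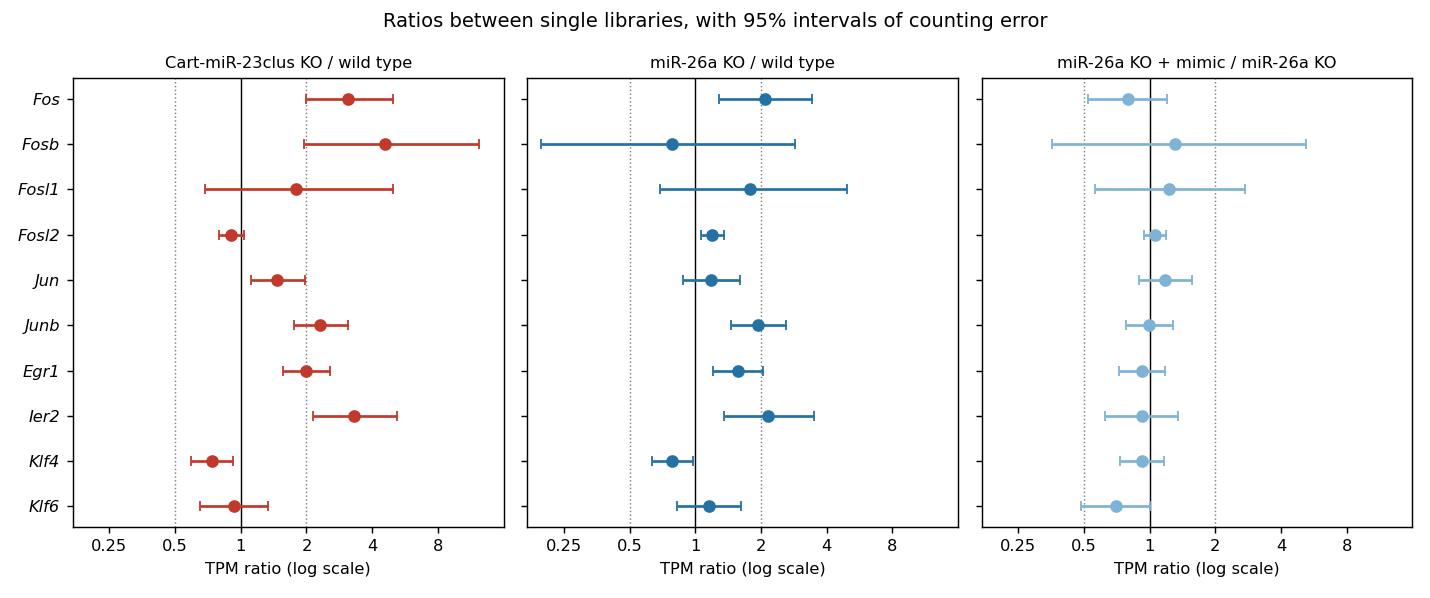
TPM ratios of the 10 genes on a log axis for the 3 comparisons, with exact 95% intervals of counting error; the solid line marks 1 and the dotted lines 0.5 and 2. In the left panel 4 points lie beyond 2 (Fos, Fosb, Junb and Ier2), in the middle panel 2 (Fos and Ier2) and in the right panel none.

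Few genes of any kind differed by 2-fold with the mimic from miR-26a KO alone, and the members' counts were near the shares of all genes. A ratio above 2 was found for 0 of the 10 members, with 1.98% of all genes above 2, and a ratio below 0.5 for 0 members, with 1.51% of all genes. An interval above 1 was found for 0 members and 4.96% of genes, and an interval below 1 for 1 member, Klf6, and 5.06% of genes. The median log2 ratio was -0.06 over the members and -0.0024 over all genes. The interval of Fosb, 0.357 to 5.23, held a 2-fold difference in either direction, that of Fosl1, 0.559 to 2.74, a 2-fold higher level, and that of Klf6, from 0.485, a 2-fold lower level.

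Comparing both knockouts directly leaves the wild-type library out. In Cart-miR-23clus KO against miR-26a KO, 1 member, Fosb, had a ratio above 2, where 3.85% of genes did, and 0 had a ratio below 0.5, where 3.67% did. As Fosb passed the filter only through the first of these libraries, the count for the other 9 members was 0. The interval lay above 1 for 4 members, Fosb with that same limit among them, against 8.05% of genes. These were Fosb, Fos at 1.49 (1.04 to 2.16), Ier2 at 1.53 (1.08 to 2.18) and Egr1 at 1.27 (1.01 to 1.59). It lay below 1 for Fosl2, against 10.8% of genes. For Junb the ratio was 1.20 (0.946 to 1.52) and for Jun 1.24 (0.942 to 1.64), and both intervals included 1. The median of the members, Fosb included, was 0.29, with -0.05 over all genes. This pair, and the one with the mimic library, were chosen after the data had been seen.

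**Figure D4:**
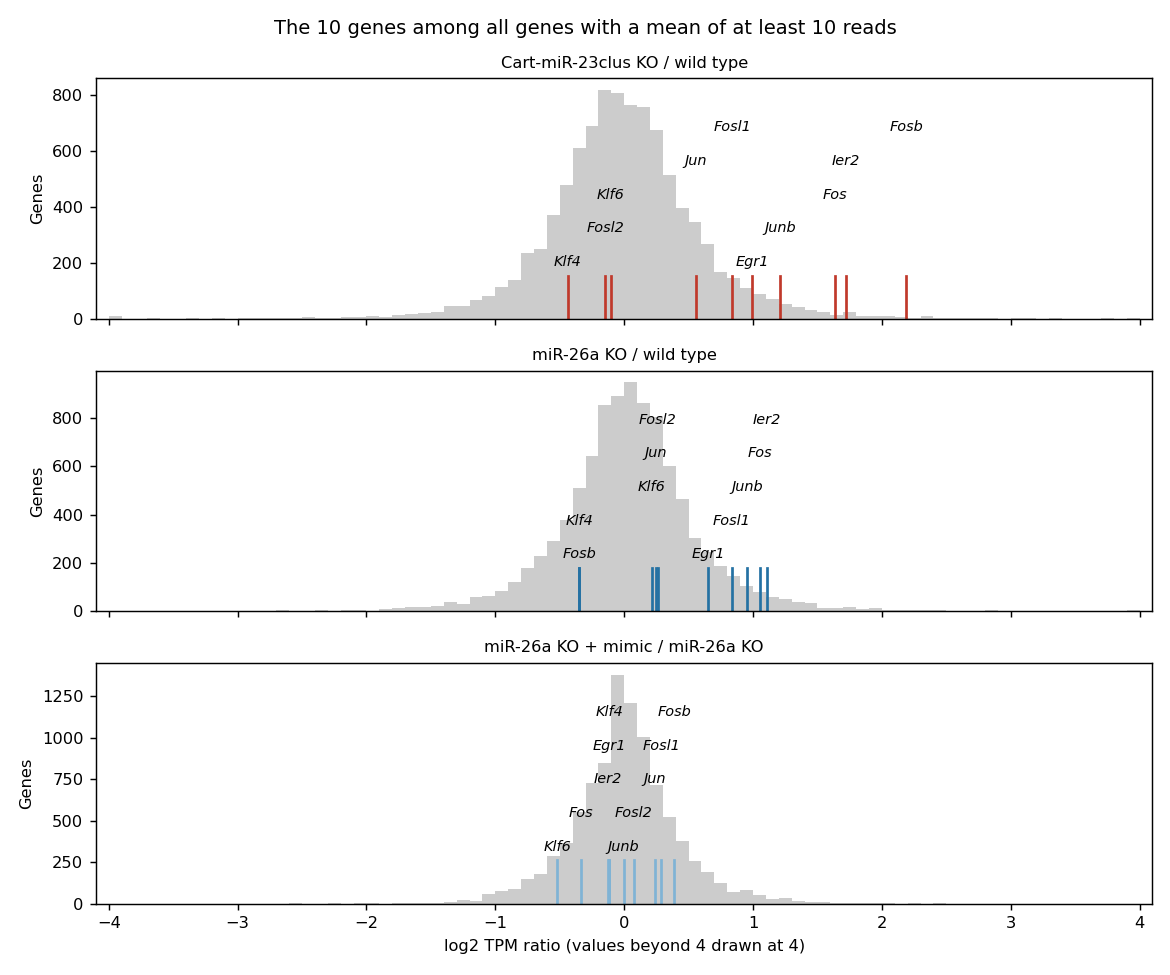
Histograms of log2 TPM ratios over the 9540 genes with a mean of at least 10 reads for the 3 comparisons, with the 10 genes as coloured ticks, each labelled above it. In Cart-miR-23clus KO against wild type Fosb, Ier2, Fos and Junb lie to the right of 1, and in the mimic panel all 10 ticks lie between -1 and 1.

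By mean TPM over the 4 libraries the order was Klf4 (189.9), Fosl2 (81.3), Junb (72.2), Ier2 (38.5), Jun (33.7), Egr1 (32.1), Fos (24.9), Klf6 (15.7), Fosl1 (6.94) and Fosb (3.27). The highest library exceeded the lowest by 5.81 times for Fosb, 3.30 for Ier2, 3.11 for Fos, 2.32 for Junb and 2.18 for Fosl1. For Klf4 (1.38), Fosl2 (1.39), Klf6 (1.43) and Jun (1.47) this spread was below 1.5, and for Egr1 it was 1.99. Klf4 and Fosl2 had the smallest spreads, but those of the less abundant Klf6 and Jun were close, so no link of level with spread is shown. TPM divides reads of 3′ ends by gene length, and ranked by CPM, which leaves length out, only 3 of the 10 genes kept their place.

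Genes with a profile over the 4 libraries most like that of Fos were sought by the distance between centred log2 TPM values, among 7557 genes with a mean of at least 20 reads. Among the nearest were Aldh1a1 (distance 0.166), Cyp1b1 (0.188), Ier2 (0.199), Dgat2 (0.215) and Sqor (0.243), and Ier2 stood at place 4. Junb stood at place 39 and Egr1 at place 49, Jun at 672, Klf6 at 3681, Fosl2 at 4513 and Klf4 at 5990. Fosb and Fosl1 had too few reads to be ranked. With 4 points that share their libraries, a small distance is a description only.

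Promoters of Fos, Fosb and Junb are printed because these were the members with the largest ratios that had an entry among the RefSeq promoters (GRCm38.p6), which held 7 of the 10 genes. Each runs from 250 bases before to 50 after the annotated start, on the strand of the gene, with motifs found in capitals. In Fos (chr12:85473640-85473939, plus strand) the capitals mark TATAAA, 33 bases before the start. In Fosb (chr7:19309996-19310295, minus strand) they mark the Egr site GCGNGGGCG, 50 bases before the start. In Junb (chr8:84978699-84978998, minus strand) they mark TATAAA at the annotated start itself.
Fos: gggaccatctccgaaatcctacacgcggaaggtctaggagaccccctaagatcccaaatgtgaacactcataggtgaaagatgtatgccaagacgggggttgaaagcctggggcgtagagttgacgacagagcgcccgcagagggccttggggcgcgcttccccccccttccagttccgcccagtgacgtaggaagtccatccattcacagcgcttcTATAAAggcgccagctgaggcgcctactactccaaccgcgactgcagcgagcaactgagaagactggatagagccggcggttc
Fosb: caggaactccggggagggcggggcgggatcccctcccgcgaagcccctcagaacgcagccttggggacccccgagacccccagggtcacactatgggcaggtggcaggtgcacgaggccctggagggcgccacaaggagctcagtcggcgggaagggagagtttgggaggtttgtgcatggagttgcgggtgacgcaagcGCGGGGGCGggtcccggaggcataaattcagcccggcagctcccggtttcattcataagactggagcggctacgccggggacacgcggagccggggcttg
Junb: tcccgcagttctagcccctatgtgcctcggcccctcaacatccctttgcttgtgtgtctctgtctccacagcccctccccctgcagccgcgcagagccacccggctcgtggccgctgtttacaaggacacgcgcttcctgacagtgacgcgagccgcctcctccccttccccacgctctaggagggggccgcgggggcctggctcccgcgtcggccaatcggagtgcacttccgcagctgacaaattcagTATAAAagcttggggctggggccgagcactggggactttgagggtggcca
Over all 7 promoters, searched on both strands, TATAAA was in 2 (Fos and Junb), and 14.2% of 27025 promoters held it. The Egr site was in 3 (Fosb, Fosl2 and Klf4), against 5.55% of promoters. A CArG box, the site of serum response factor, was in 0 of these windows against 1.57%, an AP-1 site (TGANTCA) in 0 against 7.93%, and a CRE (TGACGTCA) in 0 against 1.88%. The absence of a motif says only that these letters are not in this window.

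The AU-rich pentamer ATTTA, a feature of unstable mRNAs, was present in the 3′ UTR of 9 of the 10 genes, Ier2 being the exception, and in 72.5% of 9094 genes. Fos had 4 copies in 815 bases, or 4.91 per kb, Junb 2 copies (4.12 per kb) and Jun 4 copies (3.24 per kb). The median was 1.68 per kb over the members and 1.38 over all genes. Fosb and Ier2, both among the members with the largest ratios, had 0.434 and 0 per kb. The longer nonamer form was found in Fos and Fosl2, and in 8.52% of genes.

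Among 14 partners of AP-1 outside the 10 genes, of which 10 passed the filter of 10 reads, 0 had a ratio beyond 2-fold in any of the 3 comparisons. That is near the shares of all genes, of which 4.64%, 4.06% and 1.98% were above 2 and 4.33%, 3.27% and 1.51% below 0.5. In Cart-miR-23clus KO against wild type 6 were higher and 4 lower, with a median log2 ratio of 0.18. Mafg, a small Maf protein, had 71, 100, 91 and 89 reads in wild type, the cluster knockout, miR-26a KO and the mimic library, a ratio of 1.55 (1.13 to 2.13) in the cluster knockout. For Jund, the Jun family member that is expressed most constantly, the reads were 37, 36, 24 and 39, with a ratio of 1.07 (0.658 to 1.74). Atf7 had 68, 49, 40 and 35 reads, and its miR-26a KO level was 0.646 times wild type (0.426 to 0.969).

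Immediate early genes outside the set were split nearly evenly between higher and lower levels. This list and the 10 members were chosen with earlier results of these data known, so a contrast between them is a description only. Of 47 listed, 34 passed the filter, and in Cart-miR-23clus KO against wild type 17 were higher and 17 lower, with a median log2 ratio of 0.00 where the 10 members had 0.92. In 5 of them the ratio was above 2, where 4.64% of all genes lay, namely Socs3, Btg2, Ier3, Zfp36 and Errfi1, and in Ptgs2 it was below 0.5, where 4.33% lay; Zfp36, Errfi1 and Ptgs2 are named after their values were seen. Errfi1 had 5 and 13 reads in these libraries, and its interval (0.958 to 10.3) included 1. Socs3, an inhibitor of cytokine signalling, had 58, 144, 72 and 111 reads in the 4 libraries and a ratio of 2.73 (2.00 to 3.78). Btg2, an antiproliferative gene, had 67, 160, 83 and 69 reads and a ratio of 2.63 (1.97 to 3.55). Both were highest in Cart-miR-23clus KO, as Fos was. Ier3 had 110, 203, 177 and 177 reads, with ratios of 2.03 (1.60 to 2.59) in Cart-miR-23clus KO and 1.77 (1.39 to 2.26) in miR-26a KO. In miR-26a KO against wild type 18 of the 34 were higher and 16 lower (median 0.11), with Errfi1 above 2 (interval 0.684 to 8.19) and Myc below 0.5 (0.108 to 0.851), and with the mimic 17 were higher and 17 lower (median -0.01), with Ptgs2 below 0.5. Ptgs2 (26 reads) and Myc (20 reads) passed the filter only through wild type, where both were highest, so their places here are no support.

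Of 11 further Klf genes 7 passed, and 0 were beyond 2-fold in the 3 comparisons, which for so few genes is near the same shares. Klf13 had 119, 56, 91 and 75 reads, and its level in the cluster knockout was 0.518 times wild type (0.370 to 0.718). Klf3 had 102, 139, 139 and 108 reads, and its ratio was 1.50 in either knockout, with intervals of 1.15 to 1.96 and 1.15 to 1.95. Klf15 had 19 to 29 reads and no interval that left out 1. The medians of the 7 were -0.10, 0.12 and -0.05 in the 3 comparisons.

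Among kinases and factors upstream of the immediate early genes, with the Egr co-repressors Nab1 and Nab2, 0 that passed were beyond 2-fold. For so few genes that is near the shares of all genes in the 3 comparisons. Of all genes 4.64%, 4.06% and 1.98% were above 2, and 4.33%, 3.27% and 1.51% below 0.5. Of 21 listed 20 passed, and 5 were higher and 15 lower in Cart-miR-23clus KO against wild type (median -0.20), 7 and 13 in miR-26a KO (median -0.11), and 14 and 6 with the mimic against miR-26a KO (median 0.13). Over all genes, 48.2% were higher in the first comparison, 52.9% in the second and 49.8% in the last. In Cart-miR-23clus KO against miR-26a KO 9 were higher and 11 lower (median -0.03). Against wild type the interval left out 1 only for the kinase gene Mapk3 in miR-26a KO, at 1.30 (1.11 to 1.52), named after its value was seen. With the cluster knockout over wild type, 11.7% of all genes had an interval above 1 and 12.2% had one below 1. The matching shares for the miR-26a KO library over wild type were 11.1% and 8.42%. The kinase genes Mapk14 (27 to 48 reads) and Mapk9 (35 to 65 reads) and the serum response factor partner Mrtfa (38 to 61 reads) had the largest ratio in either direction in any of the 3 comparisons, among those with a mean of at least 20 reads. Their ratios in Cart-miR-23clus KO against wild type were 0.757, 0.688 and 0.837, each with an interval that included 1. Mapk14 with the mimic was 1.66 times miR-26a KO (1.02 to 2.77).

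Known AP-1 target genes divided. Of 13 listed 8 passed, and 4 were higher and 4 lower in each knockout against wild type, with medians of 0.42 and 0.38. These medians depended on the read filter, and at a mean of at least 50 reads they were -0.07 and 0.78. In each knockout 3 of the 8 had a ratio above 2 and 1 below 0.5. Of all genes 4.64% and 4.33% did so in Cart-miR-23clus KO, and 4.06% and 3.27% in miR-26a KO. The list was chosen with earlier results of these data known, so this is a description only. Timp1, a metalloproteinase inhibitor, had 573, 1506, 1137 and 1599 reads and ratios of 2.89 (2.63 to 3.19) in Cart-miR-23clus KO and 2.18 (1.97 to 2.41) in miR-26a KO. Hmox1, a haem-degrading stress enzyme, had 87, 229, 182 and 168 reads and ratios of 2.90 (2.25 to 3.75) and 2.30 (1.77 to 3.00). In both genes wild type was the lowest library. Ccnd1, which encodes cyclin D1, went the other way in 1 library, with 1276, 538, 1139 and 1305 reads and a ratio of 0.464 (0.419 to 0.514) in Cart-miR-23clus KO and 0.980 (0.904 to 1.06) in miR-26a KO. The remaining genes here were named after their values were seen. Mmp13, the collagenase of cartilage, had 1415, 836, 2216 and 2518 reads, with ratios of 0.651 (0.597 to 0.709) in Cart-miR-23clus KO and 1.72 (1.61 to 1.84) in miR-26a KO. Mmp3, another matrix metalloproteinase, had 17, 29, 5 and 22 reads, and was 0.323 times wild type in miR-26a KO (0.0932 to 0.912) and 4.11 times miR-26a KO with the mimic (1.52 to 13.9). Spp1 was above 2 in Cart-miR-23clus KO, at 2.09, and Cd44 in miR-26a KO, at 2.02.

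**Figure D5:**
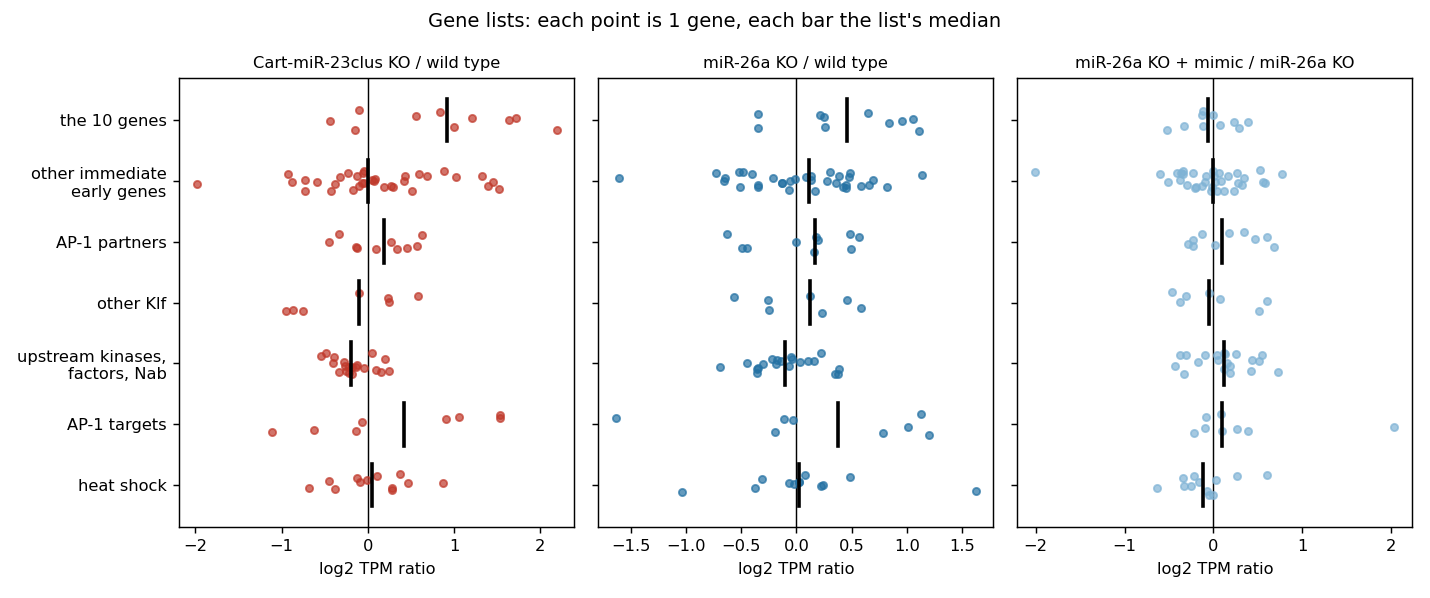
Log2 TPM ratios of the 10 genes and of 6 further lists for the 3 comparisons, with 1 point for each gene that passed the filter and a black bar at each median. The bar of the 10 genes stands at 0.92, 0.46 and -0.06 from left to right, and that of the other immediate early genes at 0.00, 0.11 and -0.01.

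Heat shock genes were counted as a second kind of rapid response. All 12 passed, and 6 were higher and 6 lower in Cart-miR-23clus KO against wild type (median 0.05), 7 and 5 in miR-26a KO (0.03), and 3 and 9 with the mimic (-0.11). Of all genes, 48.2%, 52.9% and 49.8% were higher in these comparisons. Hspb1 had 15, 25, 42 and 29 reads, and its miR-26a KO level was 3.08 times wild type (1.67 to 5.97), and Hspa1a, named after its value was seen, had 18 wild-type and 8 miR-26a KO reads, a ratio of 0.488 whose interval (0.184 to 1.18) included 1. Dnajb4 had 26 to 46 reads and Hsph1 148 to 189. The interval of Hsph1 in miR-26a KO, 1.13 to 1.75, lay above 1.

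Other features of the cultures differed between the same libraries. Of the 10 chondrocyte markers 7 lay below wild type in the cluster knockout and 8 in miR-26a KO, with median log2 ratios of -0.27 and -0.41. Markers of proliferating cells summed to 165 TPM in wild type and 287 to 303 TPM in the other 3 libraries, with 7 of 10 higher in Cart-miR-23clus KO and 9 of 10 higher in miR-26a KO. The osteoblast markers summed to 12240 TPM in wild type, 2305 in the cluster knockout, 6197 in miR-26a KO and 6935 with the mimic. Macrophage markers, all 11 detected in each library, summed to 1073, 1301, 396 and 726 TPM in that order. Smooth muscle markers summed to 153 TPM in wild type and 333 TPM in Cart-miR-23clus KO, with Myh11 at 0 in all, and fibroblast markers to 1550 to 2485 TPM. Endothelial markers summed to at most 0.406 TPM, with Cdh5 and Tek at 0 in all, and the erythroid genes Hba-a1 and Alas2 were at 0. The part of chondrocyte, proliferating, osteoblast, macrophage and smooth muscle markers in the levels of the 10 genes was not tested.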

How the data were processed

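The authors read QuantSeq 3′ libraries as single-end reads of 75 bases and mapped them to mm10 without quality filtering. The aligner, counter and annotation are not given in the sources used here. Deposited values are TPM for 4 libraries and an estimated count per gene, whole and not normalized, for 3. Reads of the mimic library were recovered from steps of the deposited TPM: 14429 values were whole within 0.05, and 588 genes could not be recovered. Groups came from the labels.

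A ratio is that of deposited TPM, with 0 reads set to 3 where the other library had more than 3. Exact intervals at 95% were taken on reads. Genes with a mean of at least 10 reads were counted above 2 and below 0.5. Named are the 10 members, the 3 genes of each list with the largest ratio among those with a mean of at least 20 reads, and the 5 genes nearest to Fos, of which not all are reported here. The members and lists were chosen with earlier results of these data known. Alternatives were CPM, edgeR's TMM, DESeq2's size factors, added TPM of 0.5 or 1, 99% intervals, a fold of 1.5 and other read filters. Steps were tested on simulated data. DESeq2 1.42.0 and edgeR 4.0.16 ran in R 4.3.3. Other steps used scipy 1.17.1, pandas 2.3.3 and numpy 2.4.6 in Python 3.11.15, with matplotlib 3.10.9 for the plots.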

Additional observations from a re-analysis of the deposited data

How the results depend on the processing

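With 1 library in each condition, no replicate could be left out. No paired analysis was possible because a single library stands for every condition. Of 313 alternative values 307 stayed within the interval of the ratio, the order-statistic interval of a list's median or 1.5 times a count, and 6 moved; all 150 alternative ratios of the members lay within their 95% intervals. Of 269 log2 values 8 changed sign. Of these 3 were of Junb in the mimic comparison and 2 of the other immediate early genes there, with values near 0. At a mean of at least 50 reads the median of the AP-1 targets in Cart-miR-23clus KO against wild type turned from 0.42 to -0.07, and that of the AP-1 partners in the mimic comparison from 0.10 to -0.13. Against the mimic library in place of wild type the partners' median turned from 0.18 to -0.05. The number of members above 2 in Cart-miR-23clus KO, 4 against wild type, was 1 against miR-26a KO and 1 against the mimic library, both added after the data had been seen. It was 5 under CPM, TMM and DESeq2's size factors, where Egr1 also lay above 2, 6 at a fold of 1.5 (12.4% of genes) and 3 among genes with a mean of at least 50 reads. In miR-26a KO against wild type it was 2 above 2-fold and 5 above a fold of 1.5, where 11.5% of all genes lay. The single interval leaving out 1 in the mimic comparison (Klf6) was lost at 99%, giving 0. At 99% the intervals of Klf4 in miR-26a KO against wild type and of Fos, Ier2 and Egr1 in Cart-miR-23clus KO against miR-26a KO also included 1. Ranked by CPM, 3 of the 10 genes kept their place. Low reads limit Fosb and Fosl1 most.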
